A study of Homo sapiens with 9 samples.

Results

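Histones are the proteins around which DNA is wrapped, and their genes were taken by symbol: those beginning with H1-, H2AC, H2AZ, H2AJ, H2BC, H3C, H3-, H4C or H4-, together with MACROH2A1 and MACROH2A2. This gave 57 of the 19775 genes measured by a probe set with a single gene symbol. Of these, 43 were replication-dependent histone genes, 10 were histone variant genes, and 4 were pseudogenes or antisense transcripts that entered neither count. H2AX was outside the rule. The gene table held 84 protein-coding genes with such symbols, and the 31 without a single-symbol probe set were not analysed here.

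Expression was measured on 9 Affymetrix arrays of U2OS, a human osteosarcoma cell line, in 3 groups of 3 arrays. Cells of the groups shBAP1 #1 and shBAP1 #2 had each received a plasmid for RNA interference against BAP1, and cells of the group shControl a plasmid with a non-targeting hairpin. Plasmids were delivered with Lipofectamine, and every culture was selected in puromycin and then arrested at the G1/S boundary with a thymidine double block. The question was which transcripts change when BAP1, a deubiquitinase that removes ubiquitin from histone H2A, is depleted.

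Replication-dependent histone genes lie mostly in clusters, are transcribed in S phase under NPAT, and give messages that end in a stem-loop, bound by SLBP, in place of a poly(A) tail. Histone variant genes are transcribed outside S phase too, and most of their messages carry a poly(A) tail. The labelling used here copies RNA from an oligo(dT) primer, which favours tailed messages. The signal of a replication-dependent gene may therefore reflect a tailed minority of its messages, and that share was not measured. Many histone genes also differ by few bases, so their probes can read relatives.

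Promoters are shown for the genes on which the results below turn, as the 150 bases before the annotated start, 5′ to 3′ on the gene's strand, from RefSeq (GRCh38.p14). Capitals mark matches on either strand to ATTTGCAT (the octamer of H2A and H2B promoters), CCAAT and TATAAA. H2BC11 and H2BC12 encode core histone H2B and are shown together because they carry the same kinds of motif. H4C5 encodes core histone H4. H2AZ1 and H2AZ2 encode the H2A.Z proteins found at promoters and regulatory DNA, and H1-10 encodes a linker histone, which binds the DNA between nucleosomes.
H2BC11 (chr6:27132796-27132945, minus strand): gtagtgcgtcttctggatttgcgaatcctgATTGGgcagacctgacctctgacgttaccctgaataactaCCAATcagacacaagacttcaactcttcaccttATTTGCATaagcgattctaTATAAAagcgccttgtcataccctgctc
H2BC12 (chr6:27146859-27147008, minus strand): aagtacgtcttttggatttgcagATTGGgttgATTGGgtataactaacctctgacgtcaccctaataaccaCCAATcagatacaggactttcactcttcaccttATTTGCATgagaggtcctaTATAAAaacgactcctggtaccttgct
H4C5 (chr6:26204460-26204609, plus strand): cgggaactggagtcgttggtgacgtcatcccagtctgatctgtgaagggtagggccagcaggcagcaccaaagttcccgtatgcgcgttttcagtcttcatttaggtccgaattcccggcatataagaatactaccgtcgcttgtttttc
H2AZ1 (chr4:99950276-99950425, minus strand): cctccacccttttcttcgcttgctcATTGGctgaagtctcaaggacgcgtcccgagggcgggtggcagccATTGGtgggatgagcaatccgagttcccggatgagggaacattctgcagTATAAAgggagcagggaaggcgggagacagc
H2AZ2 (chr7:44848088-44848237, minus strand): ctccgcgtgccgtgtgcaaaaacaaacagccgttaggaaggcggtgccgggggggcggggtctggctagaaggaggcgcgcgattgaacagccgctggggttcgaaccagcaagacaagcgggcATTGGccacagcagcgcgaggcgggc
H1-10 (chr3:129316287-129316436, minus strand): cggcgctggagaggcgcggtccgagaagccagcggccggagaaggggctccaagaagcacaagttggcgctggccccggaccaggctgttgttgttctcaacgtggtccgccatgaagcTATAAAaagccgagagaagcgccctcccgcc

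Of the 6 motifs searched, the octamer was the one found in promoters of H2A and H2B genes and of no other class of members. Within 250 bases before the start it was present in 39.5% of the 43 promoters listed for 40 replication-dependent members, against 1.63% of all 35116 promoters searched. Some genes have more than 1 listed promoter. The octamer stood in 6 of 8 H2A and 11 of 15 H2B promoters (13 H2B genes), and in 0 of the H1, H3, H4 and variant promoters. CCAAT was present in 88.4% of the replication-dependent promoters, against 32% of all, and TATAAA in 67.4%, against 10.7%. TTTGAA, the letters of the CHR element of cell cycle promoters, was present in 37.2%, against 13.3% of all promoters. Of the 15 variant promoters (10 genes), 10 held CCAAT, 3 held TATAAA and 0 held TTTGAA. The E2F letters TTTGGCGC or TTTCCCGC were in 2.33% of the replication-dependent promoters, against 1.93% of all, and the YY1 letters AAGATGGC in 0, against 1.36%. In H2BC11 the octamer began 47 bases and TATAAA 28 bases before the start, and in H2BC12 they began 46 and 27 bases before it. These matches are descriptions of the letters and not of binding.

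Several mesenchymal genes were bright on the arrays of this bone tumour line. On the log2 scale the mean level was 14.07 for VIM, 12.74 for SPARC and 11.55 for COL1A1, while the leukocyte gene PTPRC (3.95) was below 5.44, the median mean level over every probe set. Among the markers set for bone-forming cells, SP7 (4.78), ALPL (4.86) and COL1A2 (4.53) also lay below that median, where background limits the signal. Of the markers of other cell types, 3 of 5 epithelial genes (KRT18 at 12.55, KRT8 and EPCAM) and 1 of 2 endothelial genes (PECAM1 at 7.26) lay at or above it. Those 3 epithelial genes and PECAM1 were lower with both shRNAs, with a median change of the epithelial list of -0.43 with shBAP1 #1 and -0.64 with shBAP1 #2, and their part in the histone results was not tested. BAP1 itself had no named probe set, and its level was not analysed here. Nothing in the labels tells whether the replicates came from separate cultures, and the p-values cover only the spread among these arrays, which may be technical. In such bulk samples fewer cells of a type, or of a cell cycle phase, and less RNA per cell cannot be told apart.

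Few replication-dependent histone genes differed from shControl with either shRNA. With shBAP1 #1, 1 was higher and 2 were lower at an adjusted p below 0.05 (limma, Benjamini-Hochberg over all genes), which is 6.98% of the 43, against 25.6% of all genes (13% higher and 12.6% lower). With shBAP1 #2, 2 were higher and 3 lower, which is 11.6%, against 33.4% of all genes (16.9% higher and 16.5% lower). The median log2 change of the 43 genes was -0.04 with shBAP1 #1 and -0.02 with shBAP1 #2, against 0.01 and 0.02 over all genes. Of the genes called the same way with both shRNAs, 1 was higher (H4C5) and 1 lower (H2BC11), or 4.65% of the 43, against 11.7% of all genes.

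Signal strength bears on these counts. Of the 43 genes, 26 had a mean level below 5.44. Of these, 2 were called with shBAP1 #1 (7.69%) and 3 with shBAP1 #2 (11.5%), all lower, against 5.07% and 7.17% of all genes below that level. Among the 17 replication-dependent genes at or above it, 1 was called with shBAP1 #1 (5.88%) and 2 with shBAP1 #2 (11.8%), against 36.9% and 47.8% of all genes at or above it. Several of these 17, such as H2BC5, H2BC9 and H4C11, are read by probes that match unrelated transcripts. The 17 are therefore not independent measurements. The 95% interval of the change lay within a fold of 1.5 in either direction for 14 of these 17 genes with each shRNA (82.4%). Of all genes at or above that level, 70.7% met this bound with shBAP1 #1 and 64.6% with shBAP1 #2. For H2BC12, whose promoter is shown above, the interval ran from -0.05 to 0.30 with shBAP1 #1 and from -0.28 to 0.07 with shBAP1 #2 on the log2 scale. A fit of only these 2 groups with the replicate number as a block, added after seeing the data, called 6 of the 43 with shBAP1 #1, 2 higher and 4 lower. This is 14% of the members, against 29% of all genes in the same fit. The added calls were H2AC6 (-0.42, adjusted p = 0.0154, limma), H2BC4 (-0.51, adjusted p = 0.0209) and H2BC5 (0.44, adjusted p = 0.00823). They rest on a pairing of arrays that was read from these same data.

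**Figure D1:**
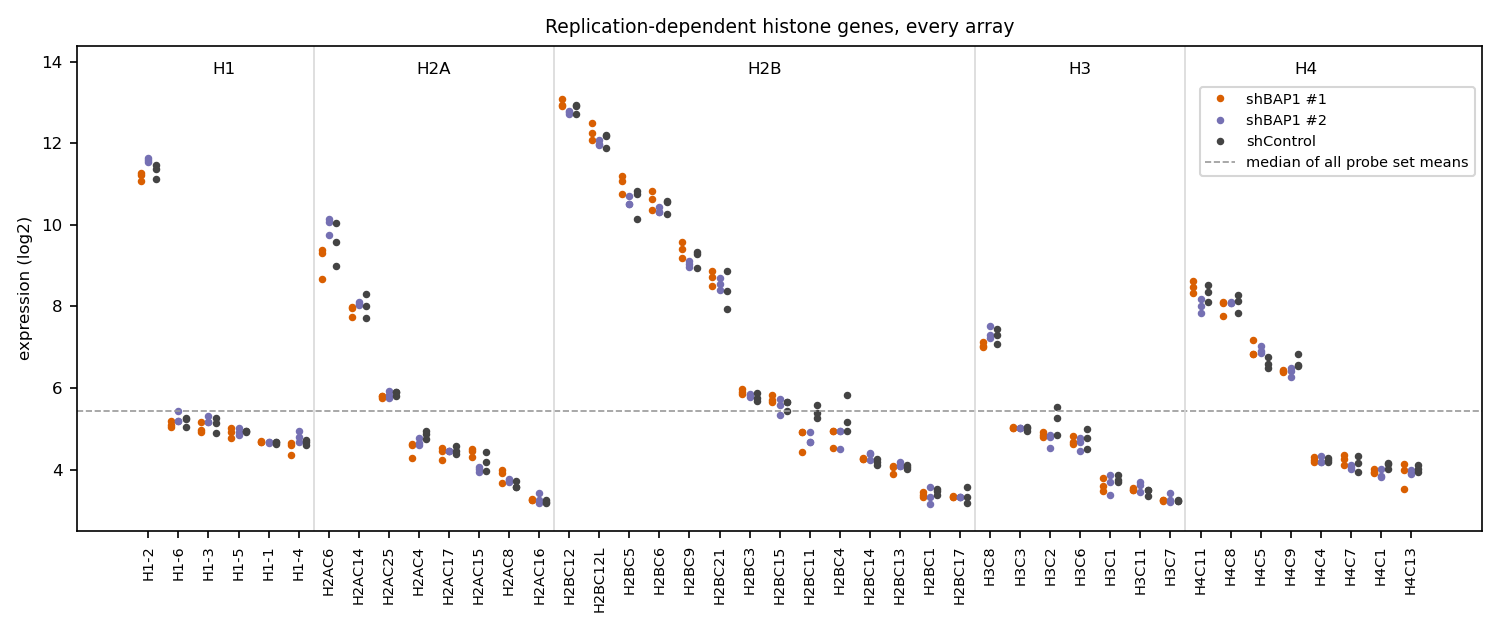
Log2 expression (vertical axis) of the 43 replication-dependent histone genes (horizontal axis, by family and mean) in every array, with 1 point per array and the 3 groups side by side in the order of the legend. Most groups overlap, and 26 genes lie below the dashed line, which marks the median mean level over every probe set (5.44).

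H2BC11 was the replication-dependent gene lowered by both shRNAs. Its log2 level was 4.93, 4.93 and 4.44 in the shBAP1 #1 arrays, 4.69, 4.68 and 4.93 in the shBAP1 #2 arrays, and 5.39, 5.59 and 5.25 in the shControl arrays. Every shBAP1 array lay below every control array. The log2 change was -0.65 with each shRNA (SE 0.14, n = 3 a group; adjusted p = 0.00609 with shBAP1 #1 and 0.00445 with shBAP1 #2, limma), or 1.57-fold lower. The probe set is dim, and only 1 array, replicate 2 of shControl, lay above 5.44. The difference between the shRNAs was 0.00, with a 95% interval of -0.31 to 0.31. H2BC12, with the octamer and TATAAA at nearly the same places, changed by 0.12 with shBAP1 #1 and by -0.10 with shBAP1 #2 (adjusted p = 0.323 and 0.380, limma), and whether H2BC11 and H2BC12 differ in their response was not tested.

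H4C5 was the replication-dependent gene raised by both. It had log2 levels of 6.83, 7.19 and 6.84 with shBAP1 #1, 6.86, 6.90 and 7.02 with shBAP1 #2, and 6.58, 6.76 and 6.49 in shControl. All 6 shBAP1 arrays lay above the control arrays. These are log2 changes of 0.34 with shBAP1 #1 and 0.32 with shBAP1 #2 (SE 0.11, n = 3 a group; adjusted p = 0.0400 and 0.0455, limma). Both calls are close to the threshold: the first was lost without replicate 2 of shBAP1 #1, replicate 2 of shBAP1 #2, or replicate 1 or 3 of shControl (change 0.23 to 0.34), and with only these 2 groups fitted (adjusted p = 0.0635). The second was lost without any 1 of the shBAP1 #2 arrays, or replicate 1 or 3 of shControl (0.25 to 0.35), and with the arrays centred or scaled by cyclic loess (adjusted p = 0.0505 for each).

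H2AC6, a replication-dependent H2A gene, differed between the shRNAs, and its call against shControl depended on the fit. It had log2 levels of 9.32, 9.38 and 8.68 with shBAP1 #1, 9.74, 10.08 and 10.13 with shBAP1 #2, and 9.59, 10.06 and 8.99 in shControl. All shBAP1 #2 arrays lay above all shBAP1 #1 arrays, and the control arrays overlapped both groups. Replicate 3 was the lowest of its group in both shBAP1 #1 and shControl. The change against shControl was -0.42 with shBAP1 #1 and 0.44 with shBAP1 #2 (SE 0.25, n = 3 a group; adjusted p = 0.294 and 0.235, limma), and shBAP1 #2 minus shBAP1 #1 was 0.86 (adjusted p = 0.0228). Without replicate 3 of shBAP1 #1, or replicate 2 or 3 of shBAP1 #2, that difference was 0.63 to 0.81 and lost its call. In all 3 same-numbered pairs the shBAP1 #1 array was below the shControl array, and the blocked fit of those groups called the change of -0.42 (adjusted p = 0.0154, limma).

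The other replication-dependent genes called against shControl changed by less, or were called with 1 shRNA only. H1-2, a linker histone, was 0.27 higher on the log2 scale with shBAP1 #2 (adjusted p = 0.0421, limma), a call lost without replicate 1 of shBAP1 #1, any shBAP1 #2 array, or replicate 1 or 3 of shControl (0.18 to 0.30), and with cyclic loess (0.26) or only these 2 groups (adjusted p = 0.0607). H2AC4 had log2 levels of 4.28, 4.59 and 4.62 with shBAP1 #1, against 4.74, 4.86 and 4.95 in shControl, a change of -0.35 (adjusted p = 0.0226, limma). That call was lost without replicate 1 of shBAP1 #1, or replicate 2 or 3 of shControl (-0.35 to -0.25). H3C2, which encodes core histone H3, changed by -0.50 with shBAP1 #2 (adjusted p = 0.0262, limma) and by -0.37 with shBAP1 #1 (adjusted p = 0.111). The H3C2 call was lost without replicate 3 of shBAP1 #2, or replicate 1 or 2 of shControl (-0.47 to -0.34), and with only these 2 groups fitted (adjusted p = 0.0574). H4C1 changed by -0.21 with shBAP1 #2 (adjusted p = 0.0464, limma), and lost its call without any of 7 arrays, all but replicate 3 of shBAP1 #2 and of shControl (-0.21 to -0.18), and with the replicate block over all arrays (adjusted p = 0.0734). H2AC4, H3C2 and H4C1 all lay below the median level. The count with shBAP1 #1 was 5 without replicate 3 of shBAP1 #1. The count with shBAP1 #2 was 3 without replicate 1 of shBAP1 #1, replicate 2 of shBAP1 #2 or replicate 2 of shControl, 2 without replicate 1 or 3 of shBAP1 #2, and 1 without replicate 1 of shControl.

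**Figure D2:**
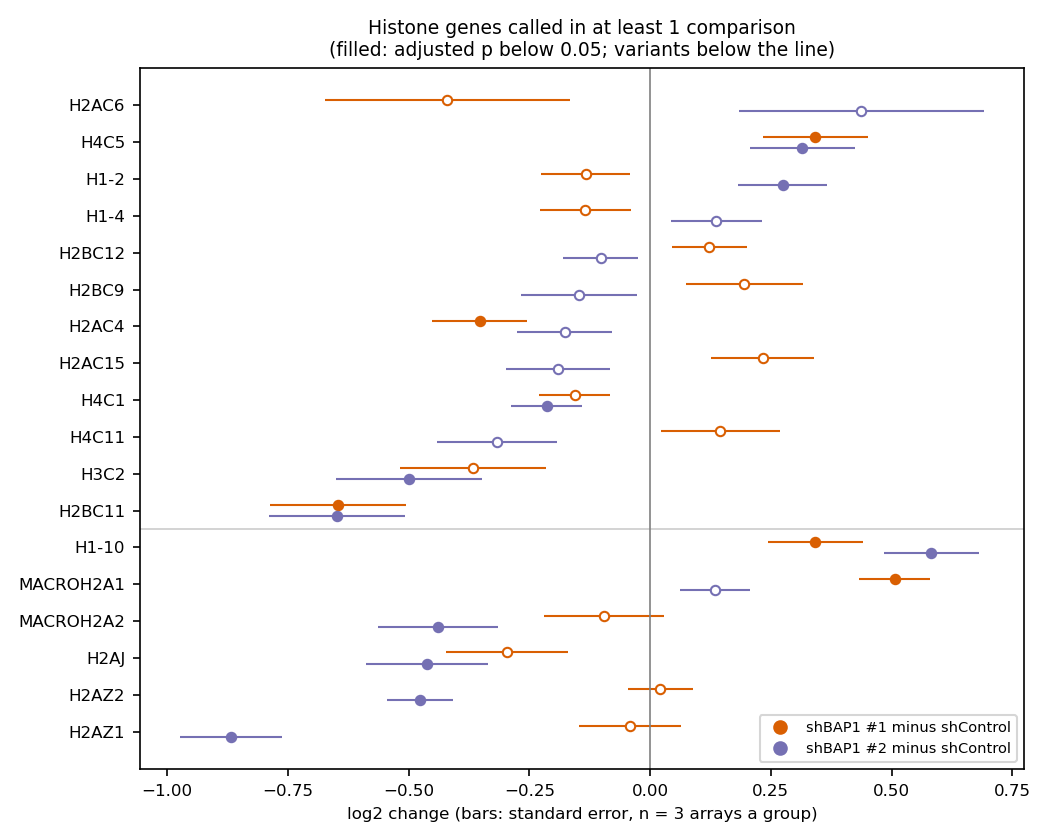
Log2 change against shControl (horizontal axis; bars are the standard error, n = 3 arrays a group) of the 18 histone genes called in at least 1 of the 3 comparisons, with shBAP1 #1 above shBAP1 #2 in each row. Filled points passed an adjusted p below 0.05. H2BC11 and H4C5 moved alike with both shRNAs, while H2AZ1 and H2AZ2 lie near 0 with shBAP1 #1 and to the left with shBAP1 #2.

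The shRNAs also differed from each other in some replication-dependent genes: 3 were higher and 4 lower in shBAP1 #2 than in shBAP1 #1, which is 16.3% of the 43, against 34.7% of all genes (17.1% higher and 17.6% lower). Of the 17 at or above the median level, 2 were higher and 3 lower (29.4%), against 49.3% of all genes at or above it. H1-2 had log2 levels of 11.55, 11.64 and 11.60 with shBAP1 #2, against 11.21, 11.28 and 11.08 with shBAP1 #1, a difference of 0.41 (adjusted p = 0.00539, limma) that kept its call in every alternative run. H2AC15 (-0.42), H4C11 (-0.46), H2BC9 (-0.34) and H2BC12 (-0.23) were lower in shBAP1 #2, and H1-4 was higher (0.27). Of the 14 H2B genes, 12 had the lower mean in shBAP1 #2, against 9623 of all 19775 genes, and only H2BC9 and H2BC12 passed the test. Some of these differences were near 0, as for H2BC11 (-0.0008), H2BC17 (-0.005) and H2BC4 (-0.008). Several of the H2B probe sets match unrelated transcripts and can read relatives, so these genes are not independent measurements. The count of replication-dependent genes called between the shRNAs was 3 without replicate 2 of shBAP1 #1 or replicate 3 of shBAP1 #2. It was 4 without replicate 2 of shBAP1 #2 or replicate 1 of shControl.

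A further 20 probe sets were annotated to several histone genes at once, and some of these had larger changes than the lowest (-0.65) among the replication-dependent genes. None of them can be assigned to 1 gene. With shBAP1 #1, 0 were higher and 2 lower, against 17.7% of all probe sets called, and with shBAP1 #2, 1 was higher and 5 lower, against 24.1% (limma, adjusted over every probe set). A probe set annotated to 10 H3 genes, 206110_at, had log2 levels of 6.43, 6.09 and 6.09 with shBAP1 #1, 4.88, 4.68 and 4.28 with shBAP1 #2, and 6.86, 7.15 and 6.16 in shControl. All shBAP1 #2 arrays lay below all others. Its change was -0.52 with shBAP1 #1 (adjusted p = 0.176) and -2.11 with shBAP1 #2 (adjusted p = 0.000103, limma).

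A probe set annotated to 14 H4 genes, 207046_at, changed by -0.70 with shBAP1 #1 and -1.07 with shBAP1 #2 (adjusted p = 0.000394 and 3.0e-05, limma). Another for the same genes, 205967_at, changed by -0.20 with shBAP1 #1 and -0.64 with shBAP1 #2 (adjusted p = 0.269 and 0.00123). A probe set annotated to 5 H2B genes, 214455_at, changed by -1.18 with shBAP1 #1 and -0.90 with shBAP1 #2 (adjusted p = 0.000893 and 0.0034). Other probe sets annotated to the same genes had no call against shControl. The 14 H4 genes were also read by 208580_x_at (0.12 with shBAP1 #1 and -0.31 with shBAP1 #2) and by the dim 208181_at (0.00 and -0.14) and 214516_at (0.14 and -0.16). The 10 H3 genes were also read by 214646_at (0.12 with shBAP1 #1 and 0.10 with shBAP1 #2) and the 5 H2B genes by 208490_x_at (0.10 and -0.16). 214646_at lay below the median level on every array. Also called with shBAP1 #2 were 207156_at, annotated to 6 H2A genes (-0.80, adjusted p = 0.0116, limma), and the dim 210387_at, annotated to 2 H2B genes (0.44, adjusted p = 0.0237). With shBAP1 #1 they changed by -0.11 and 0.28 without a call. Another probe set annotated to 6 H2A genes, 214542_x_at, changed by -0.28 with shBAP1 #1 and -0.01 with shBAP1 #2 without a call. Over all 20, the median change was -0.09 with shBAP1 #1 and -0.15 with shBAP1 #2. The shared probe sets named here were singled out after their values were seen, and which transcripts they read was not determined.

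Histone variant genes were read on the brightest probe set of each. On these, the genes for H2A.Z, H2A.J and macroH2A2 were lower with shBAP1 #2. The gene for macroH2A1 was higher with shBAP1 #1, and H1-10 was higher with both. With shBAP1 #2, 1 of the 10 was higher and 4 were lower (50%, against 33.4% of all genes), and with shBAP1 #1, 2 were higher and 0 lower (20%, against 25.6%). Among the 7 at or above the median level the shares were 71.4% and 28.6%, against 47.8% and 36.9% of all genes at or above it. Called the same way with both shRNAs were 10% of the 10, against 11.7% of all genes. For the 7 this share was 14.3%, against 17.2% of all genes at or above the median level. The count with shBAP1 #1 was 1 without replicate 1 or 3 of shBAP1 #1, or replicate 2 of shControl.

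H2AZ1 was lower with shBAP1 #2 and not called with shBAP1 #1. Its log2 level was 14.11, 14.03 and 14.07 with shBAP1 #1, 13.53, 13.11 and 13.10 with shBAP1 #2, and 14.10, 14.12 and 14.11 in shControl. The shBAP1 #2 arrays lay below all others, with replicate 1 the nearest to the controls. The change was -0.87 with shBAP1 #2 (SE 0.11, n = 3 a group; adjusted p = 0.000130, limma), or 1.83-fold lower. With shBAP1 #1 it was -0.04 (adjusted p = 0.846), with a 95% interval of -0.27 to 0.19. The difference, shBAP1 #2 minus shBAP1 #1, was -0.83 (adjusted p = 0.000142, limma). A second probe set, 200853_at, changed by -1.01 with shBAP1 #2 and -0.11 with shBAP1 #1.

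The shBAP1 #2 arrays also stood apart in genes of G2 and mitosis. The median log2 level of the 12 genes of that list was 9.67, 9.32 and 9.76 with shBAP1 #1, 9.11, 8.11 and 8.15 with shBAP1 #2, and 9.84, 9.77 and 9.85 in shControl. Replicate 1 of shBAP1 #2 was again the nearest to the controls. The part of cell cycle phase in the H2AZ1 result was not tested.

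H2AZ2, the paralogue of H2AZ1, was lower with shBAP1 #2 on its brightest probe set, 202487_s_at. That probe set gave 12.99, 12.88 and 13.02 with shBAP1 #1, 12.52, 12.45 and 12.43 with shBAP1 #2, and 12.98, 12.87 and 12.97 in shControl. The shBAP1 #2 arrays lay apart and the other groups overlapped. The change was -0.48 with shBAP1 #2 (SE 0.07; adjusted p = 0.000335, limma) and 0.02 with shBAP1 #1 (adjusted p = 0.886), and the difference was -0.50 (adjusted p = 0.000216). The other probe sets did not order the shRNAs in this way. On 212205_at the change was -0.87 with shBAP1 #1 and -0.54 with shBAP1 #2 (adjusted p = 0.00109 and 0.0129, limma over every probe set), on 212206_s_at -0.63 and -0.25, and on 227085_at -0.27 and 0.01. In the mean of the 4 probe sets H2AZ2 changed by -0.44 with shBAP1 #1, a call, and shBAP1 #2 minus shBAP1 #1 was 0.12.

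MACROH2A1 encodes macroH2A1, an H2A variant with a large globular domain beside its histone fold, which is enriched in silent chromatin. On its brightest probe set, 207168_s_at, the log2 level was 12.56, 12.39 and 12.54 with shBAP1 #1, 12.13, 12.13 and 12.12 with shBAP1 #2, and 12.02, 11.89 and 12.07 in shControl. The shBAP1 #1 arrays were the highest, and the shBAP1 #2 arrays lay just above the controls. The change was 0.51 with shBAP1 #1 (SE 0.07, n = 3 a group; adjusted p = 0.000538, limma) and 0.13 with shBAP1 #2 (adjusted p = 0.205), and the difference was -0.37 (adjusted p = 0.00238). The probe set 214501_s_at gave 0.57 with shBAP1 #1 and 0.19 with shBAP1 #2. The unique probe sets 226840_at and 229593_at, also above the median level, did not rise with shBAP1 #1. They changed by -0.23 and -0.11 with shBAP1 #1, and by 0.06 and -0.41 with shBAP1 #2, without a call. The dim 1558779_at and 1558780_a_at changed by 0.04 and 0.14 with shBAP1 #1, also without a call.

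One MACROH2A1 probe set went the other way by a wide margin. 214500_at had log2 levels of 4.96, 5.24 and 5.51 with shBAP1 #1, 7.88, 8.13 and 7.93 with shBAP1 #2, and 7.15, 6.83 and 7.03 in shControl. The 3 groups did not overlap, with shBAP1 #1 lowest and shBAP1 #2 highest. The change was -1.77 with shBAP1 #1 (SE 0.14, 3.40-fold lower) and 0.98 with shBAP1 #2 (1.97-fold higher). Both were called (limma, adjusted over every probe set). In the mean of all its probe sets MACROH2A1 changed by -0.12 with shBAP1 #1, and shBAP1 #2 minus shBAP1 #1 was 0.27, a call. MACROH2A1 is known to make alternatively spliced messages, and which of them each probe set reads was not determined here.

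**Figure D3:**
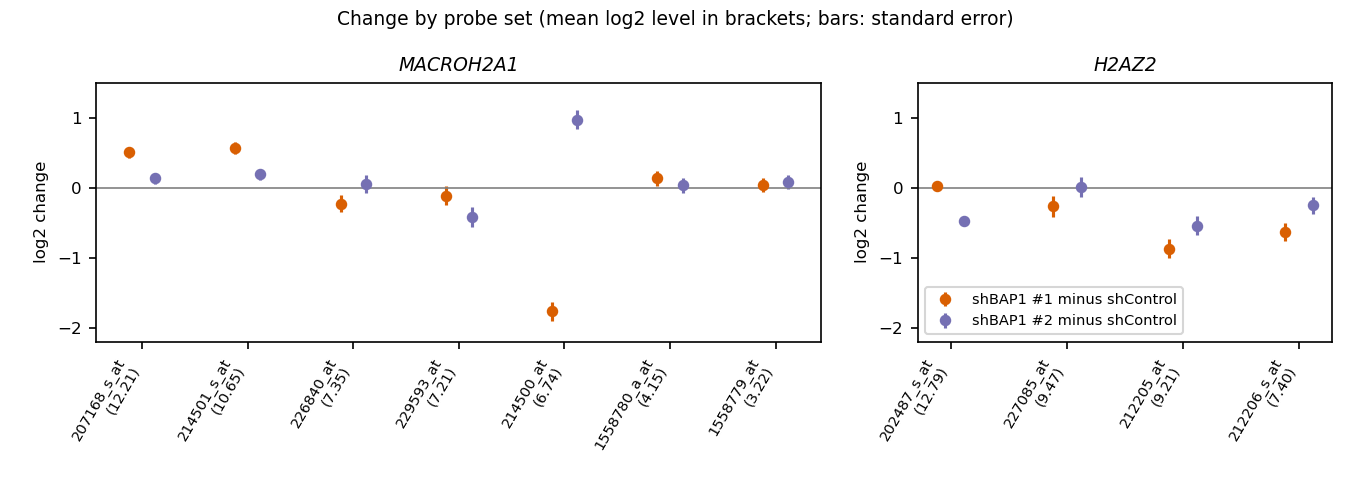
Log2 change against shControl (vertical axis; bars are the standard error, n = 3 arrays a group) on each single-symbol probe set of MACROH2A1 and H2AZ2 (horizontal axis, mean log2 level in brackets), with shBAP1 #1 left of shBAP1 #2. On 214500_at the shRNAs lie on opposite sides of 0, at -1.77 and 0.98.

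H1-10, which encodes the linker histone H1.10, was the variant gene raised by both shRNAs. Its log2 level was 10.04, 9.71 and 9.87 with shBAP1 #1, 9.97, 10.20 and 10.16 with shBAP1 #2, and 9.61, 9.42 and 9.56 in shControl. All shBAP1 arrays lay above all control arrays. It was 0.34 log2 units higher with shBAP1 #1 and 0.58 higher with shBAP1 #2 (SE 0.10, n = 3 a group; adjusted p = 0.0260 and 0.000994, limma), and the difference of 0.24 was not called (adjusted p = 0.0880). The call with shBAP1 #1 was lost without replicate 1 or 3 of shBAP1 #1, or replicate 2 or 3 of shControl (0.26 to 0.36).

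The remaining variants changed less. MACROH2A2, the second macroH2A gene, changed by -0.44 with shBAP1 #2 (adjusted p = 0.0193, limma) and -0.10 with shBAP1 #1. The MACROH2A2 call was lost without replicate 1 or 3 of shBAP1 #2, or replicate 1 or 3 of shControl (-0.41 to -0.36). H2AJ, an H2A variant, changed by -0.46 with shBAP1 #2 (adjusted p = 0.0155, limma) and by -0.30 with shBAP1 #1 (adjusted p = 0.122). In the blocked fit of shBAP1 #1 and shControl alone, H2AJ was called (adjusted p = 0.0214). Its probes match unrelated transcripts, and its 3 other probe sets gave other values. With shBAP1 #2, 224301_x_at changed by -0.32 without a call, and among the dim ones 220936_s_at changed by 0.29 (adjusted p = 0.0394, limma over every probe set) and 228213_at, with unique probes, by -0.01. The mean of the H2AJ probe sets gave -0.13 with shBAP1 #2, which was not called (adjusted p = 0.267, limma). H3-3A, a source of the replication-independent histone H3.3, changed by 0.04 with shBAP1 #1 and -0.01 with shBAP1 #2, and its 95% intervals ran from -0.12 to 0.20 with shBAP1 #1 and from -0.17 to 0.14 with shBAP1 #2. H1-7, H1-8 and H3-4 lay below the median level and were not called.

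**Figure D4:**
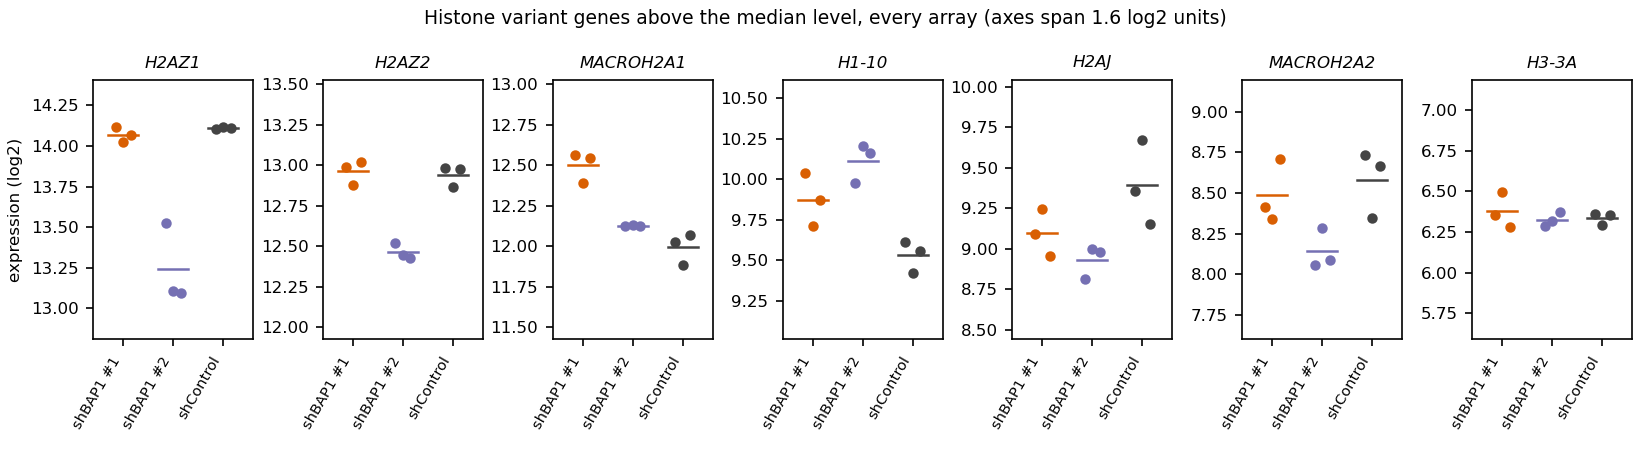
Log2 expression (vertical axes, each spanning 1.6 log2 units) of the 7 histone variant genes above the median level, with 1 point per array, a line at each group mean, and shBAP1 #1, shBAP1 #2 and shControl side by side. The shBAP1 #2 arrays stand apart for H2AZ1 and H2AZ2, the shBAP1 #1 arrays for MACROH2A1, and both shBAP1 groups lie above shControl for H1-10.

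Several genes that make and process histone messages fell with both shRNAs. Of 19 such genes, 1 was higher and 9 lower with shBAP1 #1 (median log2 change -0.29), and 1 was higher and 10 lower with shBAP1 #2 (median -0.45). All 19 lay at or above the median level, and the shares called were 52.6% with shBAP1 #1 and 57.9% with shBAP1 #2, against 36.9% and 47.8% of all genes at or above it. With both shRNAs, 7 were lower and 1 higher (42.1%, against 17.2%). SLBP, which binds the histone stem-loop, had log2 levels of 9.37, 9.36 and 9.84 with shBAP1 #1, 10.01, 9.66 and 9.65 with shBAP1 #2, and 10.52, 10.51 and 10.56 in shControl. All shBAP1 arrays lay below the controls, with changes of -1.01 for shBAP1 #1 and -0.76 for shBAP1 #2 (SE 0.13; adjusted p = 0.000316 and 0.00132, limma). CASP8AP2, which encodes the processing factor FLASH, changed by -0.89 with shBAP1 #1 and -0.88 with shBAP1 #2. In the same order, ZNF473, a factor of the U7 particle, changed by -0.36 and -0.97, and CCNE2, a cyclin whose kinase acts on NPAT, by -2.46 and -2.51. LSM10, a protein of the U7 particle named here after its values were seen, was the gene that rose with both (0.25 with shBAP1 #1 and 0.47 with shBAP1 #2).

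NPAT changed by -0.41 with shBAP1 #1 and -0.38 with shBAP1 #2, short of the threshold (adjusted p = 0.0563 and 0.0580, limma). Chosen after their values were seen, CPSF2 and the histone message exonuclease gene ERI1 fell with shBAP1 #1 (-1.23 and -0.91). With shBAP1 #2 they changed by -0.17 and 0.16, and the difference between the shRNAs was 1.07 for each (adjusted p = 0.000111 for CPSF2 and 9.99e-05 for ERI1, limma). The count of this list with shBAP1 #1 was 6, all lower, without replicate 1 or 2 of shBAP1 #1 or replicate 1 of shControl.

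Histone chaperones and exchangers carry histones and place them on DNA. With both shRNAs, 5 were lower and 1 higher (23.1%, against 17.2% of all genes at or above the median level). Of 26, 2 were higher and 14 lower with shBAP1 #2 (median -0.38), and 3 were higher and 5 lower with shBAP1 #1 (median -0.05). The shares called were 61.5% with shBAP1 #2 and 30.8% with shBAP1 #1, against 47.8% and 36.9% of all genes at or above the median level, where all 26 lay. Among these were the H3-H4 chaperone ASF1B (-0.91 with shBAP1 #1 and -0.87 with shBAP1 #2), the CAF-1 subunits CHAF1A (-0.63 and -1.12) and CHAF1B (-0.61 and -0.50), and the histone acetyltransferase HAT1 (-0.47 and -0.57). ANP32E, a chaperone that removes H2A.Z and was chosen after its values were seen, changed by 0.00 with shBAP1 #1 and -0.64 with shBAP1 #2 (adjusted p = 0.990 and 0.000514, limma). The count with shBAP1 #1 was 4 without replicate 1 or 2 of shBAP1 #1, 3 without replicate 1 of shControl, and 5 without replicate 2 or 3 of shControl.

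Genes of S phase entry and replication fell as well: 11 of 17 measured were lower with shBAP1 #1 (median -0.60) and all 17 with shBAP1 #2 (median -0.997), with 0 higher. Among all genes at or above the median level, where these lay, 18.4% were lower with shBAP1 #1 and 23.8% with shBAP1 #2. The replication genes with the largest mean change were POLE2 (-1.33 with shBAP1 #1 and -1.63 with shBAP1 #2), CDC45 (-1.10 and -1.69), CDC6 (-1.10 and -1.65) and MCM6 (-0.60 and -2.04). Without replicate 1 or 2 of shBAP1 #1, or replicate 1 of shControl, the count with shBAP1 #1 was 7, and without replicate 3 of shControl it was 6. Of 12 genes of G2 and mitosis, 1 was higher and 2 lower with shBAP1 #1 and 11 were lower with shBAP1 #2 (medians -0.21 and -1.19), or 25% and 91.7% of the list, all of it at or above the median level. The blocked fit of shBAP1 #1 and shControl alone called 6 of these 12, 1 higher and 5 lower, and 41.6% of all genes at or above the median level, against 36.9% without the block. CCNB2 (-0.84 with shBAP1 #1 and -0.67 with shBAP1 #2) and CDK1 (-0.71 and -1.31) fell with both.

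The median of the brighter replication-dependent histone genes followed another order over the arrays. The median log2 level of the 17 replication-dependent genes at or above the median level was 8.47, 8.62 and 8.32 with shBAP1 #1, 8.08, 8.18 and 8.11 with shBAP1 #2, and 8.35, 8.52 and 7.95 in shControl, and each shBAP1 group overlapped shControl. In each same-numbered pair shBAP1 #1 was above shControl, and all shBAP1 #2 arrays lay below all shBAP1 #1 arrays. Several of the 17 genes are read by probes that can read relatives, so this median is not taken over independent measurements. The median log2 level of the S phase list was 10.04, 9.62 and 10.28 with shBAP1 #1, 9.74, 9.38 and 9.34 with shBAP1 #2, and 10.75, 10.59 and 10.73 in shControl, with every shBAP1 array below every control array. H2AX, a histone gene outside the rule whose message exists in tailed and stem-loop forms, changed by -1.35 with shBAP1 #1 and -0.67 with shBAP1 #2 (adjusted p = 0.000504 and 0.0208, limma). CENPA, the centromeric H3 variant, changed by 0.01 with shBAP1 #1 and -1.03 with shBAP1 #2 (adjusted p = 0.986 and 0.0011).

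A measure of RNA integrity and labelling also separated the groups. The log2 level of the 3′ probe set of actin minus that of its 5′ probe set was 0.40 ± 0.01 with shBAP1 #1, 0.41 ± 0.04 with shBAP1 #2 and 0.49 ± 0.02 in shControl (SD, n = 3 each), and every shBAP1 array (0.39 to 0.46) lay below every control array (0.47 to 0.51). Its part in the changes shared by both shRNAs, H2BC11, H4C5 and H1-10 among them, was not tested.

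**Figure D5:**
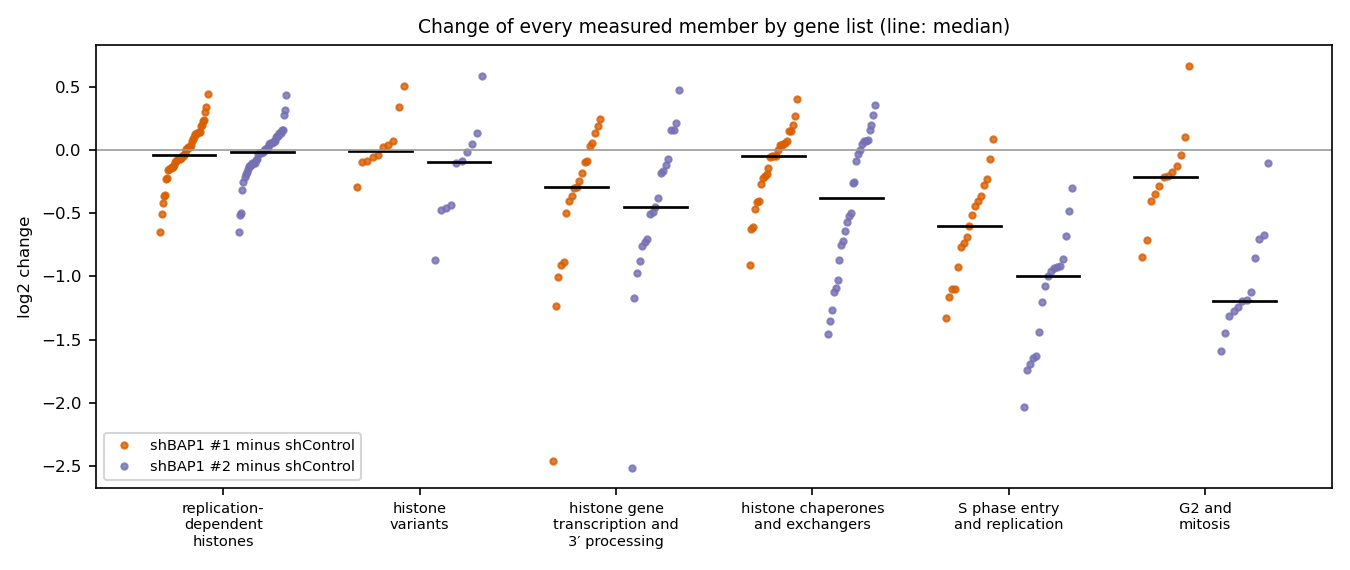
Log2 change against shControl (vertical axis) of every measured member of 6 gene groups (horizontal axis), with shBAP1 #1 left of shBAP1 #2 and a line at each median. The replication-dependent histone genes centre near 0 (medians -0.04 and -0.02), while the S phase genes lie mostly below 0 (medians -0.60 and -0.997).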

How the data were processed

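The authors deposited 1 log2 value per probe set and array, computed with RMA per the submitters' processing notes (version not given in the sources used here). RMA forces the same distribution on every array, so a shift of all transcripts is removed, and it compresses changes of dim probe sets. Total RNA was labelled by Affymetrix's One-Cycle protocol, per the labels' protocols. For arrays, their number limits the precision. Array medians lay between 5.40 and 5.45.

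Of 54675 probe sets, 41097 had 1 gene symbol in the platform annotation, 1801 had several and 11777 were not listed. Per gene the single-symbol probe set with the highest mean was kept, which left 19775 genes. All 57 histone members matched the gene table (GRCh38.p14). A probe set name ending in _x_at marks probes that match unrelated transcripts (8 of the 53 protein-coding members), and _s_at or _a_at marks probes shared between transcripts (8 members).

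limma 3.58.1 in R 4.3.3 was fitted to the log2 values of all 9 arrays (lmFit and eBayes, two-sided, 6 residual and 4.33 prior degrees of freedom). A gene was called at a Benjamini-Hochberg adjusted p below 0.05 over all 19775 genes, with no filter on low values, or over every probe set where so stated. The comparisons of each shRNA share the shControl arrays. The fit was tested on simulated data. Motifs were searched and figures drawn in Python 3.11.15 with pandas 2.3.3 and matplotlib 3.10.9. Promoters were found for 50 of the 53 protein-coding members.

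Histone genes are described in full where called with both shRNAs, or called in any comparison with a log2 change of at least 0.5. Pathway lists name up to 4 genes, those called the same way with both shRNAs with the largest mean change. Other called members, the probe set 214500_at and the shared probe sets were singled out after their values were seen. The members and lists were chosen with earlier results of these data known, so no count here is independent support for what those results showed.

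Same-numbered arrays of shBAP1 #1 and shControl deviated together from their group means (r = 0.113, 0.203 and 0.216 over all genes), so an alternative fit treated the replicate numbers of these groups as pairs. Those of shBAP1 #2 and shControl did not (r = 0.0675, 0.181 and -0.105), nor did those of the shRNAs (0.0235, 0.0381 and -0.210). Differently numbered arrays of shBAP1 #1 and shControl gave r from -0.220 to 0.0390, and those of any 2 groups reached 0.236. The pairing was thus read from the same values that the blocked fit uses, and the calls that fit added rest on it. The labels do not say what the numbers mark, so the fit as reported had no block. Alternatives were the replicate block, the mean of a gene's probe sets, no _x_at probe sets, no dim genes, arrays centred on their medians, cyclic loess, only the 2 groups compared, array weights and each array left out. Added after seeing the data were each probe set fitted on its own and the replicate block with only the 2 groups compared.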

Additional observations from a re-analysis of the deposited data

Results flagged for a closer look

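10 of the 53 protein-coding histone genes (18.9%) differed between the shRNAs at an adjusted p below 0.05 (limma, shBAP1 #2 minus shBAP1 #1, n = 3 arrays a group), against 34.7% of all genes. Lower in shBAP1 #2 than in shBAP1 #1 were the variant genes H2AZ1 (log2 difference -0.83), H2AZ2 (-0.50) and MACROH2A1 (-0.37), of which H2AZ2 and MACROH2A1 turned sign in the mean of their probe sets. Among replication-dependent genes, H2AC6 (0.86), H1-2 (0.41) and H1-4 (0.27) were higher in shBAP1 #2, and H4C11 (-0.46), H2AC15 (-0.42), H2BC9 (-0.34) and H2BC12 (-0.23) were lower.

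The H1-4 and H2BC9 differences each lost their call without any of 7 arrays and the H2BC12 difference without any of 8, one at a time, with values of 0.18 to 0.30, -0.38 to -0.25 and -0.26 to -0.17. H4C11 lost its call without replicate 2 of shBAP1 #1 (-0.39). H2AC15, H4C11 and H2BC9 lie on probe sets that are dim (H2AC15) or match unrelated transcripts (H4C11 and H2BC9). Groups of 3 arrays were not tested for outlying samples.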

How the results depend on the processing

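Of 54 changes of named histone genes recomputed, 25 were called, and 8 of these kept the call in every alternative, H2BC11 with both shRNAs and H2AZ1 with shBAP1 #2 among them. Signs turned for H2AZ2 in the mean of its probe sets (-0.44 with shBAP1 #1 and 0.12 for shBAP1 #2 minus shBAP1 #1), for MACROH2A1 likewise (-0.12 and 0.27), and for H2AJ without _x_at probe sets (0.29 with shBAP1 #2 and 0.41 for shBAP1 #2 minus shBAP1 #1), since other probe sets are then read.

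The count of replication-dependent genes called with shBAP1 #1 (3) was 1 without dim genes, where 17 were tested, and 5 with array weights. With shBAP1 #2 (5) it was 3 without dim genes and 2 with only those groups fitted. The replicate block in the fit of all 9 arrays left these counts within 1.5 times. The replicate block with only the 2 groups compared follows the pairing of shBAP1 #1 and shControl that was read from the same data. It gave 6 for the replication-dependent genes (14%) and 6 for the G2 and mitosis list (3 as reported). In that fit 29% of all genes were called, against 25.6% as reported. Without 1 array at a time, the replication-dependent count ranged from 2 to 5 with shBAP1 #1, 1 to 7 with shBAP1 #2 and 3 to 8 between the shRNAs. The variant count ranged from 1 to 2, 4 to 5 and 3 to 4. The lists ranged, with shBAP1 #1 and then shBAP1 #2, from 6 to 11 and 11 to 12 (message processing), 3 to 10 and 14 to 17 (chaperones), 6 to 13 and 16 to 17 (S phase), and 3 to 3 and 9 to 11 (G2 and mitosis). For the other fits and the left-out arrays, the share of all genes called is not given here. Their counts therefore cannot be read as moves of the histone genes or lists alone. Signal over background limits the 26 dim replication-dependent genes, and the cause of these moves was not tested.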
